A study of Mus musculus with 4 samples.

Results

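The genes described here are 10 that encode proteins of the synaptic vesicle membrane or proteins attached to it: Syp, Syn1, Syn2, Sv2a, Sv2b, Rab3a, Syngr1, Syngr3, Scamp5 and Synpr. They were listed by name with no cut on their values, although earlier results of these data were known. Their Ensembl identifiers were matched to GENCODE M21 symbols. All 10 were among the 31053 genes of the count tables, and all 10 were among the 12336 genes that passed the filter on low counts and were tested. The samples were primary cortical neurons from wild-type mice, and the study's methods describe cultures from C57BL/6J embryos. In 2 libraries RNA was fragmented with RNase I and pulled down with an antibody to RPS2, which is part of the small subunit of the ribosome (RPS2 eCLIP, enhanced crosslinking and immunoprecipitation, here the IP). The other 2 libraries held total RNA taken from the samples ahead of the IP. The labels give rRNA depletion as treatment for the IP and no treatment for total RNA. The study's methods place rRNA depletion after library preparation and do not name the libraries it covered. An effect of depletion and an effect of the IP therefore cannot be told apart. No label says that replicates 1 and 2 came from separate cultures, so the p-values given here apply to these libraries only. The main test compared IP and total RNA within each replicate. Its p-values rest on the spread left after the difference between replicates is removed.

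Synaptic vesicles store neurotransmitter in axon terminals and release it by fusing with the plasma membrane. Their membrane carries multi-pass proteins, and other proteins attach to it from the cytosol. Synaptophysin (Syp) and its relative synaptoporin (Synpr), the synaptogyrins (Syngr1, Syngr3) and the secretory carrier membrane protein Scamp5 are tetraspan membrane proteins. Sv2a and Sv2b are glycoproteins that resemble transporters, and Sv2a is the binding site of the antiepileptic drug levetiracetam. The synapsins (Syn1, Syn2) coat vesicles from the cytosolic side and hold them in the reserve pool. Rab3a is a small GTPase with a lipid anchor that cycles on and off the vesicle before and after release. The study divided IP counts by total RNA counts for each gene to obtain an eCLIP-based translational efficiency, and the comparison below asks where these mRNAs fell on that measure.

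Library totals ran from 4899718 to 16460545 counts, and the non-coding gene Gm42418 alone took from 15.3% to 42.6% of a library. Together the 10 vesicle mRNAs made up 0.399% of IP replicate 1, with a 95% interval by Wilson's method of 0.396% to 0.402%. They made up 0.568% (interval 0.563% to 0.572%) of the second IP library, 0.330% (0.325% to 0.335%) of total RNA replicate 1 and 0.542% (0.535% to 0.548%) of the second total RNA library. With Gm42418 left out of the totals, these shares were 0.696% and 0.787% for the IP libraries against 0.547% and 0.640% for total RNA, so both IP libraries then lay above both total RNA libraries. Intervals cover counting error only.

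Levels are given per length, as RPKM, which is CPM (counts scaled by the effective size of the library) per kilobase of the exonic length listed in the files. That length covers all annotated exons and can far exceed 1 transcript of the gene. It was 7031 bases against 2708 in Syn2 and 9439 against 2541 in Synpr, but 3299 against 3209 in Syn1. The order of genes below therefore depends on this choice of length. Syp was the highest in total RNA, at 258 ± 18.6 RPKM (SD, n = 2), with 245 in replicate 1 and 271 in replicate 2. Syn1 followed at 193 ± 31.0, Rab3a at 149 ± 31.7 and Sv2a at 124 ± 4.46. The libraries of Syp lay above those of Syn1, and those of Sv2a above those of Syngr1, whereas Syn1, Rab3a and Sv2a overlapped each with its neighbour. Syngr1 was at 77.1 ± 6.27 and Scamp5 at 71.9 ± 5.11, which overlapped, and Syngr3 was at 44.0 ± 6.53 and Syn2 at 40.6 ± 7.61, which overlapped too. Sv2b (24.2 ± 3.16) and Synpr (1.76 ± 0.0197) each lay below all genes ahead of them. Among the genes tested, Syp stood above 99.6% in mean RPKM of total RNA, Syn1 above 99.4% and Rab3a above 99.1%, while Synpr stood above 31.0%.

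**Figure D1:**
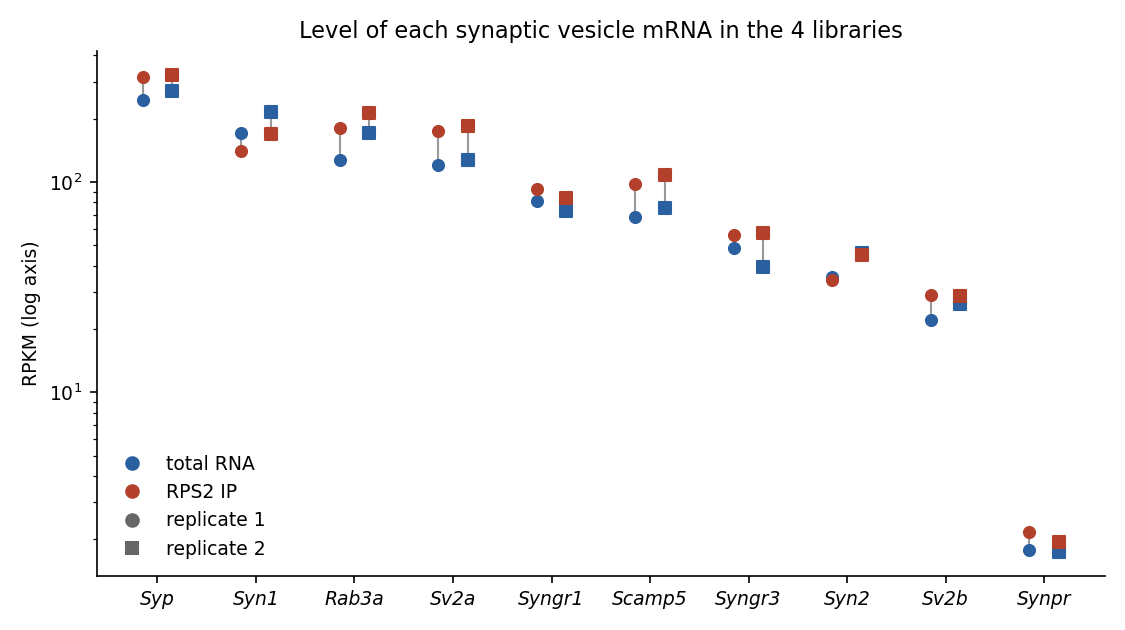
RPKM on a log axis for each of the 10 mRNAs, ordered by mean level in total RNA, with total RNA in blue, the RPS2 IP in red, replicate 1 as circles and replicate 2 as squares, and a grey line joining IP and total RNA of one replicate. Syp is highest and Synpr lowest, and the red symbol lies above the blue one of its replicate for 8 of the 10 mRNAs.

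Within families one relative had the higher RPKM in every library. The size of these ratios depends on the exonic lengths used, whereas their change from total RNA to IP does not. Sv2a over Sv2b in RPKM was 5.50 and 4.81 in total RNA of replicates 1 and 2, and 6.09 and 6.43 in the IP, above both total RNA values. Syn1 over Syn2 was 4.85 and 4.66 in total RNA and 4.13 and 3.77 in the IP, lower in both IP libraries. Syngr1 over Syngr3 was 1.68 and 1.85 in total RNA against 1.66 and 1.46 in the IP, and Syp over Synpr was 138 and 156 against 146 and 167.

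Some of these mRNAs were higher in the IP than in total RNA, and 1 of the synapsins was lower. With IP and total RNA compared within each replicate (edgeR quasi-likelihood test with the replicate number as a block), 5 of the 10 were called higher (Sv2a, Scamp5, Rab3a, Syngr3 and Syp), 1 was called lower (Syn1) and 4 were not called, at a Benjamini-Hochberg adjusted p under 0.05 over all genes tested. The same fit called 6.63% of all genes tested higher and 7.55% lower. The median log2 fold change was 0.28 over the 10 mRNAs and 0.011 over all genes tested. The log2 ratio was above 0 in both replicates for 8 of the 10 and below 0 in both for the other 2, against 34.3% and 32.2% of all genes. In CPM, both IP libraries lay above both total RNA libraries for 8 of the 10 (16.9% of all genes tested) and below for 1 (14.9%). The fit without the block gave log2 fold changes that differed by at most 0.010 for the 10 mRNAs, but edgeR then called 0 of the 10 and 0 genes in all. At an unadjusted p under 0.05 there were 2 of the 10 (Sv2a and Scamp5) and 349 genes in that fit, and DESeq2 without the block called 0 of the 10 and 5 genes. The blocked fit leaves 1 residual degree of freedom, and edgeR then took the spread of every gene from the trend over genes. The biological coefficient of variation that edgeR estimated was 7.93% with the block and 29.7% without it.

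**Figure D2:**
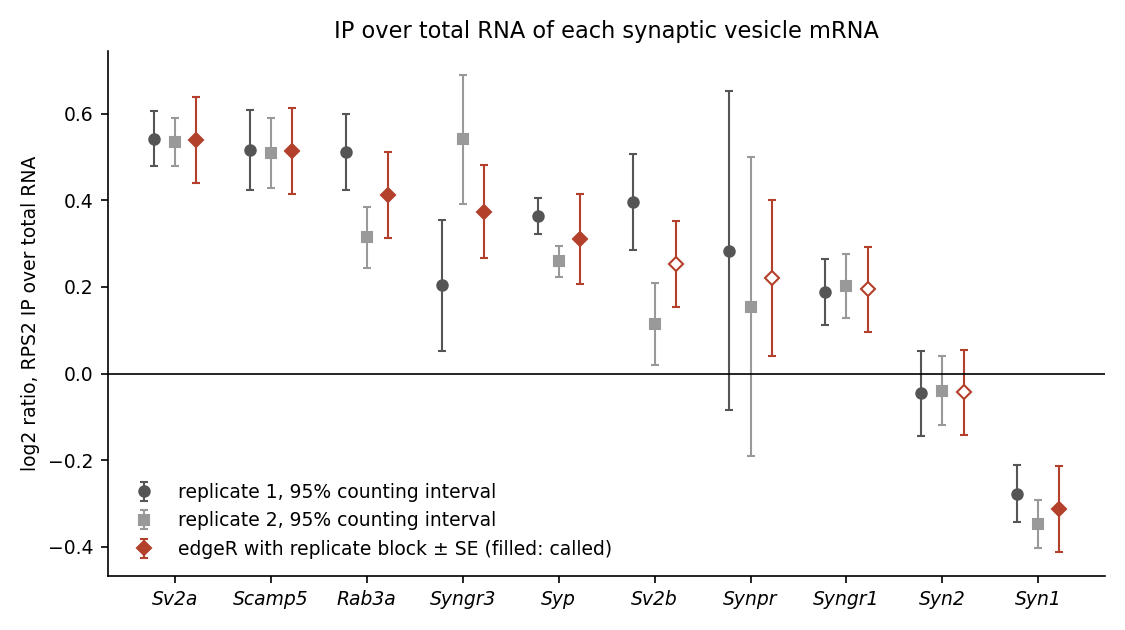
Log2 ratio of RPS2 IP to total RNA for each mRNA, in replicate 1 (dark circles) and replicate 2 (grey squares) with 95% counting intervals, and the edgeR estimate with the replicate block and its SE (red diamonds, filled where called). Sv2a and Scamp5 have nearly the same ratio in both replicates, Syngr3, Sv2b and Rab3a differ most between them, and Syn1 lies below 0 in both.

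The sequence around the start codon is where the small ribosomal subunit settles before elongation, so it is shown for the mRNAs at either end of the order. The lines give, for one GENCODE M21 transcript per gene, the 10 bases before the start codon, the start codon and the 10 bases after it. Capitals mark the start codon, the third base before it and the base right after it.
Sv2a: aagccccAtcATGGaagaaggct
Scamp5: ctgatccAtcATGGcggagaaag
Rab3a: cctcccgCagATGGcttccgcca
Syngr3: agtgcccGcaATGGagggagcat
Syn2: ctcaagcCagATGAtgaacttcc
Syn1: cgccgccAccATGAactacctgc
A purine at the third base before the start codon together with a G right after it, the pair of positions that count most in the Kozak sequence, was present in 6 of the 10 mRNAs and in 45.8% of 11868 tested genes with an annotated start. Those 6 were Sv2a, Sv2b, Scamp5, Syngr1, Syngr3 and Synpr. Both synapsins had A right after the start codon and Syp had C, and Rab3a, Syp and Syn2 had C at the third base before it. A purine there was present in 7 of the 10 mRNAs and in 86.7% of the 11868 genes. A match is a description of the letters alone.

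Sv2a (ENSMUSG00000038486, mm10 chromosome 3, 96181151 to 96195521) had the highest ratio. It measured 815 and 854 CPM in the IP and 560 and 589 CPM in total RNA, for replicates 1 and 2. Both IP libraries were well above both total RNA libraries, by 1.46-fold in replicate 1 and 1.45-fold in replicate 2. Its log2 fold change of 0.54 ± 0.10 (SE) was higher than that of 91.6% of genes, and the adjusted p was 5.00e-06. Its relative Sv2b (ENSMUSG00000053025, chromosome 7, 75114894 to 75309262) measured 242 and 240 CPM in the IP, against 184 and 221 in total RNA. Here the IP libraries were alike and the total RNA libraries differed, and the log2 ratio was 0.40 in replicate 1 (95% counting interval 0.29 to 0.51) and 0.12 in replicate 2 (0.021 to 0.21). Sv2b had a log2 fold change of 0.25 ± 0.099 with an adjusted p of 0.0684 and was not called.

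Among the tetraspan proteins, Scamp5 (ENSMUSG00000040722, chromosome 9, 57441327 to 57468060) was nearest to Sv2a. It measured 362 and 399 CPM in the IP against 253 and 280 in total RNA. The groups did not overlap, and the log2 ratio was 0.52 in replicate 1 and 0.51 in replicate 2. Its log2 fold change was 0.51 ± 0.099, with an adjusted p of 1.24e-05. Syp (ENSMUSG00000031144, chromosome X, 7638471 to 7653256), the most abundant of the 10, measured 1641 and 1691 CPM in the IP, against 1276 and 1413 in total RNA. All counts of Syp were high, from 5731 to 22710, so its counting intervals were narrow, at 0.32 to 0.40 in replicate 1 and 0.22 to 0.30 in replicate 2. Its log2 fold change was 0.31 ± 0.10, with an adjusted p of 0.0262. With an offset for GC content and exonic length the value was again 0.31, with an adjusted p of 0.0685.

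The synaptogyrins moved less evenly. Syngr3 (ENSMUSG00000007021, chromosome 17, 24685092 to 24689955), whose protein is known to bind the dopamine transporter, measured 116 and 119 CPM in the IP, against 101 and 81.5 in total RNA. The IP libraries agreed closely and total RNA replicate 2 was low, so that the log2 ratio was 0.20 in replicate 1 and 0.54 in replicate 2, with counting intervals that did not overlap. The log2 fold change was 0.37 ± 0.11, with an adjusted p of 0.00683. Syngr1 (ENSMUSG00000022415, chromosome 15, 80091334 to 80119501) measured 446 and 402 CPM in the IP, against 392 and 349 in total RNA. Its IP libraries lay above those of total RNA, with log2 ratios of 0.19 and 0.20, but the log2 fold change of 0.20 ± 0.098 had an adjusted p of 0.184 and was not called. The GC and length offset exchanged the calls of these 2 genes, with Syngr1 at 0.36 (adjusted p 0.0125) and Syngr3 at 0.31 (adjusted p 0.0548). That fit called 4 of the 10 mRNAs higher and 0 lower, and 3.81% and 3.1% of all genes.

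Synpr (ENSMUSG00000056296, chromosome 14, 13284780 to 13616340) was the only one of the 10 with few counts, at 282 and 204 in the IP, against 75 and 100 in total RNA. In CPM it measured 20.4 and 18.3 in the IP, against 16.7 and 16.4 in total RNA, with the IP libraries just above. The log2 ratios were 0.28 and 0.15, and both counting intervals included 0 (-0.083 to 0.65 and -0.19 to 0.50). A difference was not detectable at this depth, with a log2 fold change of 0.22 ± 0.18 and an adjusted p of 0.473.

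Of the proteins attached from the cytosol, Rab3a (ENSMUSG00000031840, chromosome 8, 70754679 to 70758677) was higher in the IP. It measured 402 and 475 CPM in the IP, against 282 and 382 in total RNA. The groups did not overlap, although total RNA replicate 2 came close to IP replicate 1, and the log2 ratio was 0.51 in replicate 1 and 0.32 in replicate 2. The log2 fold change was 0.41 ± 0.099, with an adjusted p of 0.000714.

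The synapsins stood at the other end. Syn1 (ENSMUSG00000037217, chromosome X, 20860511 to 20921004) measured 465 and 556 CPM in the IP, against 563 and 708 in total RNA. Neither IP library reached a total RNA library, although IP replicate 2 and total RNA replicate 1 were close, and the log2 ratio was -0.28 and -0.35. The log2 fold change was -0.31 ± 0.099, with an adjusted p of 0.0160, and 16.9% of genes had a lower one. With the GC and length offset the call was lost (log2 fold change -0.20, adjusted p 0.280). Syn2 (ENSMUSG00000009394, chromosome 6, 115134902 to 115282006) measured 240 and 315 CPM in the IP, against 248 and 323 in total RNA. Its groups overlapped, and replicate 2 was above replicate 1 in both. The log2 ratio was -0.046 and -0.040, with counting intervals of -0.14 to 0.052 and -0.12 to 0.040, and the log2 fold change was -0.043 ± 0.098 with an adjusted p of 0.837.

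Sorted by how the protein sits on the vesicle, all 7 multi-pass membrane proteins had a log2 ratio above 0 in both replicates, with log2 fold changes from 0.20 (Syngr1) to 0.54 (Sv2a), and 4 of them were called higher. Of the 3 attached proteins, 1 was called higher, 1 lower and 1 was not called. Over all genes tested, 34.3% had a ratio above 0 in both replicates, 6.63% were called higher and 7.55% lower. This grouping was made with the values known and was given no test. It was not extended to the paralogues and other vesicle proteins described below. Of those tested, 5 of 11 and 12 of 17 had a ratio above 0 in both replicates.

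**Figure D3:**
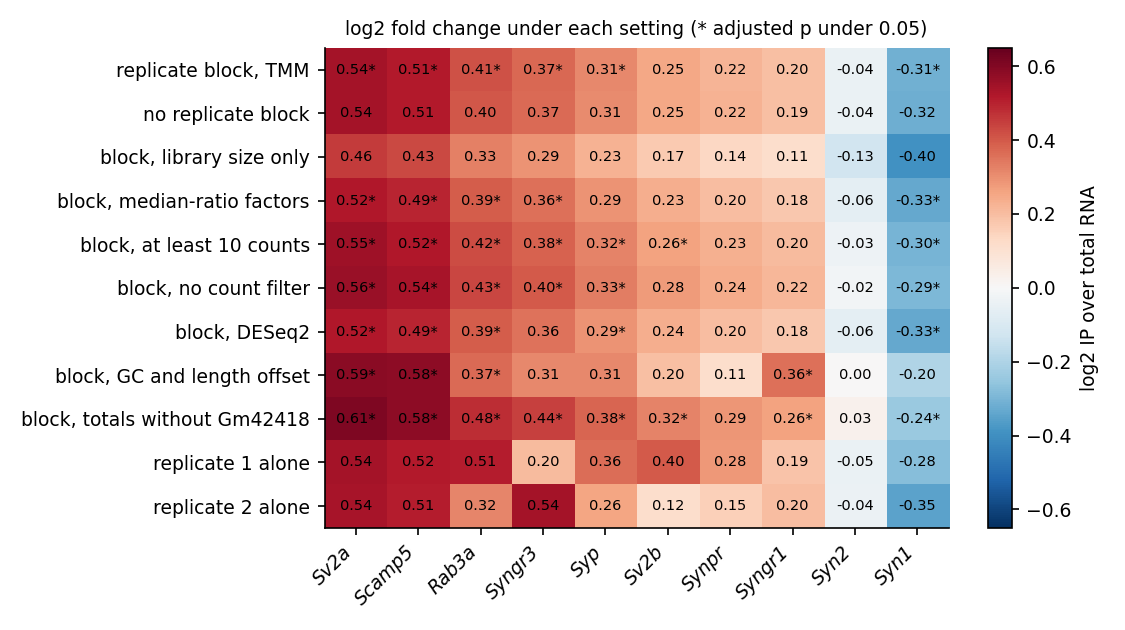
Log2 ratio of IP to total RNA for each mRNA (columns) under each setting (rows), coloured from blue (lower in the IP) to red (higher), with an asterisk where the adjusted p was under 0.05. The last 2 rows are single replicates and have no test. All mRNAs other than Syn1 and Syn2 are above 0 in every row, Syn1 is below 0 in every row, and Syn2 changes sign. No value carries an asterisk without the block or with scaling by library size only.

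With the block and scaling by library totals alone, 0 of the 10 were called, and their median was 0.20 against -0.073 for all genes. Libraries left out in turn, in fits without the block that set a lone library against both of the other group, changed the size of several of these values. Rab3a was at 0.20 without total RNA replicate 1 and at 0.64 without total RNA replicate 2, and leaving out IP replicate 2 gave 0.27. Syn1 was at -0.14 without total RNA replicate 2 and at -0.47 without total RNA replicate 1, and leaving out IP replicate 1 gave -0.19. Syngr3 was at 0.22 without total RNA replicate 2. Of those not called, Sv2b ran from 0.12 (without total RNA replicate 1) to 0.39 (without total RNA replicate 2), and Syngr1 from 0.11 (without total RNA replicate 2, and likewise when IP replicate 1 was left out) to 0.28 (without total RNA replicate 1). Sv2a ran from 0.50 to 0.57 and Scamp5 from 0.44 to 0.59. Across the 10, the log2 ratios of the replicates differed by a median of 0.087, against 0.25 over all genes tested and 0.16 over 5003 genes whose counts reached 100 in each library. Most of the 10 were abundant, and those 5003 genes were not matched to them in level. The largest difference was 0.34, for Syngr3. Counting intervals of the replicates also did not overlap for Syp, Sv2b and Rab3a.

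Most of the sequence of these genes was not shared with another gene. Of all 30-base words in the transcripts of Syn1, Sv2a, Rab3a, Syngr1, Syngr3 and Scamp5, 0% occurred in transcripts of another gene, and the shares were 0.502% for Sv2b, 0.547% for Synpr and 1.00% for Syn2. For Syp it was 17.2%, of which nearly all lay in Gm14703, an antisense gene that shares 875 exonic bases with it and had 0 counts in all 4 libraries. The shared words of Syn2 were mostly those of Timp4, a metalloproteinase inhibitor gene nested in it on the opposite strand, which had from 34 to 188 counts. Timp1, nested likewise in Syn1, had from 9 to 47 counts. On the opposite strand, Araf shared 9 exonic bases with Syn1 and had from 222 to 873 counts. Mpv17l2 likewise shared 29 with Rab3a and had from 98 to 281 counts. Rpl3 overlapped Syngr1 on the opposite strand with 0 shared exonic bases and had from 357 to 1192 counts. The counting was strand-specific per the file headers, so such antisense genes were counted apart. None of the 10 held a small RNA in its counted exons.

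The coding sequences of the 10 had a median length of 902 bases, against 1446 over 12151 genes tested with a coding transcript. They ran from 663 bases in Rab3a to 2229 in Sv2a, which had the highest IP ratio of the 10, and the length was 2121 in Syn1, which had the lowest ratio. The median exonic length was 4722 bases against 4672, and the median GC content 54.8% against 50.5%. Syn1 had the highest GC content of the 10, at 57.7%, followed by Syngr1 at 57.2%, and Synpr had the lowest, at 41.8%. Under the GC and length offset the calls of 4 of the 10 changed: Syn1, Syp and Syngr3 lost theirs and Syngr1 gained one. GC content was 52.0% in Syp and 55.9% in Syngr3.

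Other genes of the vesicle cycle were counted in the same fit, which called 6.63% of all genes tested higher and 7.55% lower. Of 14 paralogues from the same families, 11 were tested, and 3 were called higher and 0 lower, with a median log2 fold change of 0.27. Those were Scamp1 (0.64 ± 0.11, adjusted p 6.47e-07), Rab3c (0.41 ± 0.11, adjusted p 0.00215) and Sypl (0.70 ± 0.25, adjusted p 0.0358). Among relatives not called, Sv2c was at 0.27 (adjusted p 0.0820) and Syn3 at -0.22 (adjusted p 0.510). With the block, scaling by library totals and DESeq2 each called 1 of the paralogues higher. Of the 12336 genes, these fits called 283 and 158 higher. The median of the paralogues fell to 0.10 when IP replicate 1 was left out and to 0.11 when total RNA replicate 1 was.

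Of 17 other vesicle proteins, all tested, 6 were called higher and 0 lower, with a median of 0.27. They were Mal2 (0.74), the fusion protein genes Vamp1 (0.63) and Vamp2 (0.27), the co-chaperone gene Dnajc5 (0.39), the proton pump subunit gene Atp6v0d1 (0.38) and the zinc transporter gene Slc30a3 (0.34). The vesicular glutamate transporter gene Slc17a7 was at 0.069 and the vesicular GABA transporter gene Slc32a1 at -0.0033, neither of them called. Syt1, the main calcium sensor of release, was at 0.056 and not called. Scaling by library totals called 2 of these 17 higher and blocked DESeq2 called 3, against 283 and 158 of the 12336 genes. The median of the 17 was 0.12 without total RNA replicate 1.

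The lists of proteins that act on vesicles from outside had medians near that of all genes. Of 9 genes of the Rab3 cycle, 1 was called higher and 2 lower, with a median of -0.064. The 1 higher was Rabif (1.29 ± 0.26, adjusted p 3.22e-05), which binds Rab proteins, and the 2 lower were Rab3gap2 (-0.38 ± 0.10, adjusted p 0.00384), a subunit of the complex that turns Rab3 off, and the active zone scaffold gene Rims1 (-0.32 ± 0.099, adjusted p 0.0128). Of 13 genes of vesicle endocytosis, 0 were called higher and 1 lower, with a median of -0.029. It was Ap2a1 (-0.40 ± 0.099, adjusted p 0.00106), a subunit of the clathrin adaptor. With the GC and length offset the medians of these lists were 0.016 and 0.029, and those of paralogues and other vesicle proteins 0.21 and 0.22, so only the first pair changed sign. Under that offset Ap2a1 and Rab3gap2 were not called, which left 0 endocytosis genes and 1 gene of the Rab3 list lower. Scaling by library totals gave the same counts, with Rab3gap2 called and Rims1 not. With totals without Gm42418 the same pair was at 0.0053 and 0.040, where the median over all genes tested was 0.081. In the fit without the block 0 genes of the 4 lists were called, and at an unadjusted p under 0.05 there were 1, 2, 1 and 0 in the order given. These lists were written with earlier results known, and their medians were not tested against each other. Single libraries moved the medians of this pair too, to -0.16 for the Rab3 list when IP replicate 1 was left out, and for endocytosis to between -0.18 (without total RNA replicate 1) and 0.0085 (without total RNA replicate 2).

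**Figure D4:**
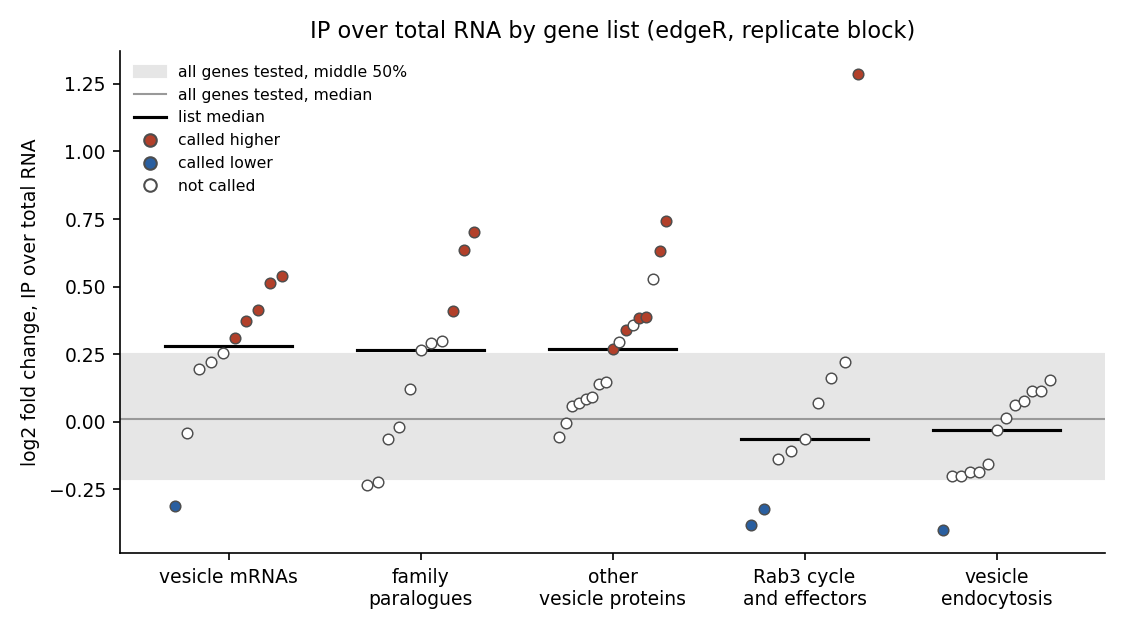
Log2 fold change of IP over total RNA (edgeR with the replicate block) for the 10 vesicle mRNAs and the tested genes of 4 further lists, each point a gene, red where called higher, blue where called lower and white where not called, with list medians as black bars and the median and middle 50% of all genes tested as a grey line and band. The medians of the first 3 lists lie between 0.27 and 0.28, and those of the Rab3 cycle and endocytosis lists at -0.064 and -0.029. These medians hold for all 4 libraries, and without total RNA replicate 1 the first 3 are 0.24, 0.11 and 0.12.

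The replicates differed in glial markers, and the vesicle mRNAs differed between them by less. In total RNA, summed CPM of 5 astrocyte markers was 1522 in replicate 1 and 484 in replicate 2, and that of 5 microglia markers 58.8 and 4.93. The IP libraries showed the same order, at 1840 and 505 for astrocytes and 60.1 and 6.83 for microglia. All 5 astrocyte markers and all 5 microglia markers were lower in total RNA of replicate 2, with Cx3cr1, Aif1 and P2ry12 at 0 counts there. The 7 neuron markers summed to 3329 and 3926 CPM in total RNA, and the 5 oligodendrocyte lineage markers to 60.1 and 48.3. In the fit of IP over total RNA, the neuron marker Snap25 and the astrocyte markers Aqp4 and Slc1a3 were called higher and no marker was called lower. That fit called 6.63% of all genes tested higher and 7.55% lower. Of the microglia, oligodendrocyte lineage and dividing cell or progenitor markers 3, 3 and 2 were tested, with 0 called, and no endothelial marker passed the filter. Without the block, or with the block and scaling by library totals, 0 neuron and 0 astrocyte markers were called. Blocked DESeq2 called 1 neuron and 0 astrocyte markers higher. The GC and length offset called 0 and 1 higher, and 1 dividing cell or progenitor marker lower. The log2 ratio of Aqp4 was 0.73 in replicate 1 and 0.17 in replicate 2. Summed CPM of 4 endothelial markers was under 3 in every library, with Cldn5 at 0, and Mki67 and Top2a, markers of dividing cells, were under 2 CPM in every library. The 5 dividing cell and progenitor markers together summed to 106 and 80.9 CPM in total RNA of replicates 1 and 2. Most of that came from Sox2 (53.0 and 13.6 CPM) and Nes (49.9 and 65.9 CPM). Between the replicates, log2 CPM of the 10 vesicle mRNAs in total RNA differed by -0.30 (Syngr3) to 0.44 (Rab3a), with a median of 0.15 in favour of replicate 2. Rab3a, Syn1 and Syn2 were higher in replicate 2 by 0.44, 0.33 and 0.38 in total RNA and by 0.24, 0.26 and 0.39 in the IP. In bulk samples fewer cells of a type and less RNA per cell cannot be told apart. The ratio of IP to total RNA within a replicate sets libraries of the same number side by side. The part of the glial markers in it was not tested.

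**Figure D5:**
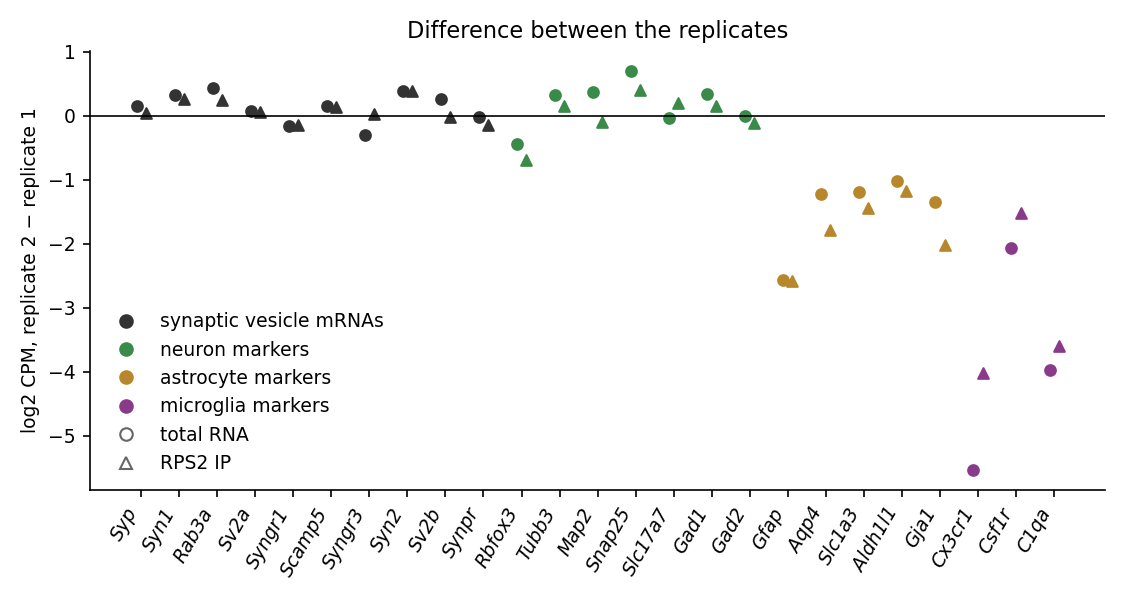
Difference in log2 CPM between replicate 2 and replicate 1 for the 10 vesicle mRNAs (black) and for tested neuron (green), astrocyte (ochre) and microglia (purple) markers, in total RNA (circles) and the RPS2 IP (triangles). The vesicle mRNAs lie between -0.30 and 0.44, whereas every astrocyte and microglia marker shown lies below -1.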

How the data were processed

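The authors trimmed single-end reads with cutadapt, aligned them end to end to mm10 with STAR and counted them per gene. Per the file headers this used featureCounts 1.5.3 in stranded mode, without the options that count reads at several loci or in several genes. The deposited values are raw counts per gene, with each gene's exonic length. No removal of PCR duplicates was named. Symbols came from GENCODE M21 (30934 of 31053 identifiers), on the same build.

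The analysis used edgeR 4.0.16 under R 4.3.3, with filterByExpr, TMM scaling and the two-sided quasi-likelihood test with Benjamini-Hochberg adjustment over 12336 genes. SEs were derived from the test's F statistic. The ratio within a replicate is the difference of log2 CPM with a prior count of 2. The replicate number was a block, because total RNA was taken from the same samples before the IP. Deviations from group means correlated between same-numbered libraries (Pearson r = 0.733 across genes). With 2 against 2 libraries an exact permutation test cannot go below p = 0.333. DESeq2 1.42.0, other scalings and filters, an offset for GC content and length (natural splines per library, 12328 genes) and left-out libraries were alternatives. The fits were tested on simulated data drawn with the spread that the blocked fit estimated, which checks the code and not that spread. One transcript per gene was taken by APPRIS rank, then coding length. Genes named were the 10 vesicle genes, called members of the other lists, markers, overlapping genes and the 5 genes of nearest profile. Sv2c, Syn3, Slc17a7, Slc32a1 and Syt1 were named besides, with values known. The genes, lists and design were chosen with earlier results of these data known.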

Additional observations from a re-analysis of the deposited data

How the results depend on the processing

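The median log2 fold change of the 10 vesicle mRNAs, 0.28, stayed above 0 in every fit run, and was 0.23 in replicate 2 alone and 0.32 in replicate 1 alone. Without the replicate block edgeR called 0 vesicle mRNAs higher and 0 lower, and 0 genes higher and 0 lower in all, against 818 and 931 with it. DESeq2 with no replicate block called 0 and 0 of the vesicle mRNAs and 0 and 5 genes. Leaving out 1 library in turn, without the block, called 0 of the vesicle mRNAs, 0 genes higher and 1, 3, 3 or 8 lower, with a median of 0.24 to 0.30. With the block and libraries scaled by their totals alone, 0 vesicle mRNAs were called higher and 0 lower, with a median of 0.20, and 283 genes were higher and 878 lower, so that 24.4% of calls were higher in place of 46.8%. That scaling moved the log2 ratios by -0.017 in replicate 1 and -0.15 in replicate 2. Totals without Gm42418 gave 7 higher and 1 lower, a median of 0.35 and 1231 genes higher against 681 (64.4% of calls higher). The median over all genes tested was 0.081 in that fit, against 0.011 in the main fit. Blocked DESeq2 found 4 of the vesicle mRNAs higher and 1 lower, and 158 and 382 genes (29.3% of calls higher). The GC and length offset gave 4 and 0, and 470 genes higher (3.81%) and 382 lower (3.1%). An adjusted p under 0.01 left 4 and 0, and 452 and 602 genes. Of 8 blocked fits, Sv2a, Scamp5 and Rab3a were called in 7, Syn1 in 6, Syp and Syngr3 in 5, Sv2b and Syngr1 in 2, and Syn2 and Synpr in 0. Blocked DESeq2, among those 8, gave no adjusted p for Synpr. Syn2 (-0.043) changed sign to 0.0027 with the GC and length offset, to 0.026 with totals without Gm42418, and to 0.14 when IP replicate 1 was left out and 0.16 when total RNA replicate 2 was. The causes were not tested.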

Other observations

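The 5 genes whose profile over the 4 libraries was nearest to the mean profile of the 10 vesicle mRNAs, among 7758 other genes with a mean of at least 10 CPM, were Ube2d2a, Reep1, Asphd1, Clpp and Ppm1b. Likeness was the Euclidean distance between log2 CPM values centred on each gene's mean, and it was 0.031 for Ube2d2a and 0.049 for Ppm1b. Of the vesicle mRNAs, Syp was closest to that mean profile, at 0.072, and Syn1 was farthest, at 0.59. Reep1, which encodes a protein that shapes the endoplasmic reticulum, had log2 ratios of IP to total RNA of 0.23 in replicate 1 and 0.26 in replicate 2. With 4 libraries, such a ranking describes these libraries and no more.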
